A study of Mus musculus with 207 samples.

Results

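The 1921 autosomal SNP markers of an F2 intercross between the AKR and DBA/2 mouse strains were examined for segregation and recombination. They are all rows of the deposited genotype table that lie on chromosomes 1 to 19, to which the 46 markers of the X chromosome add to make up the whole table, and no measured value entered their choice. Each call gives a mouse 1 of 3 classes at a marker, AKR homozygous, heterozygous or DBA/2 homozygous. Calls of all male F2 mice were used, as a single group with no treatment. DNA came from the spleens of mice killed at 16 weeks of age, whose bone marrow macrophages were used for expression arrays. Both parental strains lacked apoE, so that every mouse was apoE-deficient, and each had been made by repeated backcrossing of a C57BL/6 knockout line, which can leave C57BL/6 segments behind. The cross was run in both directions, with an AKR paternal grandmother for 77 of the males and a DBA/2 paternal grandmother for 37. Unless a smaller number is given, values are over these 77 and 37 mice together. Positions are those of the deposited table in Mb, and their genome build is not given in the sources used here.

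In an F2 intercross every autosome comes from F1 parents that carry 1 chromosome of each strain. Without selection the AKR homozygous, heterozygous and DBA/2 homozygous classes are therefore expected at 1:2:1 at every locus. Recombination in the F1 meioses breaks the parental chromosomes, so that the classes change along each autosome of a mouse. The number of changes gives the genetic length in centimorgans. Crossovers on 1 chromosome tend to space each other out, which is called interference, and chromosomes that are not linked assort independently. Mouse autosomes carry their centromere at the proximal end, where positions start.

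5 mice went against the label of an F2. F2-31, F2-32, F2-33, F2-34 and F2-35 had 0 AKR homozygous calls over all 19 autosomes, with at least 1904 markers typed in each. The lowest AKR homozygous share in any of the other mice was 4.95%, and the median of these mice was 23.5%. In place of AKR homozygotes, the 5 mice were DBA/2 homozygous at 64.2%, 51.9%, 40.2%, 48.2% and 44% of their calls and heterozygous at 35.8%, 48.1%, 59.8%, 51.8% and 56%. Their AKR allele shares of 17.9%, 24%, 29.9%, 25.9% and 28% all lay below those of the other mice, of which the lowest was 35.5%. No mouse lacked DBA/2 homozygous calls.

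The same 5 mice had few crossovers. The autosomes of F2-31 to F2-35 held 15, 11, 12, 14 and 16, against 14 to 41 with a median of 26 in the other mice, of which 2 were below 15. On the X chromosome, which a male receives from his mother, F2-32 had the AKR allele at 33 markers and the DBA/2 allele at 12. F2-35 had them at 34 and 12 and F2-34 at 3 and 43, while F2-31 and F2-33 had the DBA/2 allele at 45 typed markers each. All 5 mice were recorded with a DBA/2 paternal grandmother, as were 32 of the others. They missed at most 0.885% of their calls, and pairs among them shared 34.7% to 61.4% of their calls, so that none was a copy of another. How these mice were bred was not tested, and values that move without them are given both ways.

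**Figure D1:**
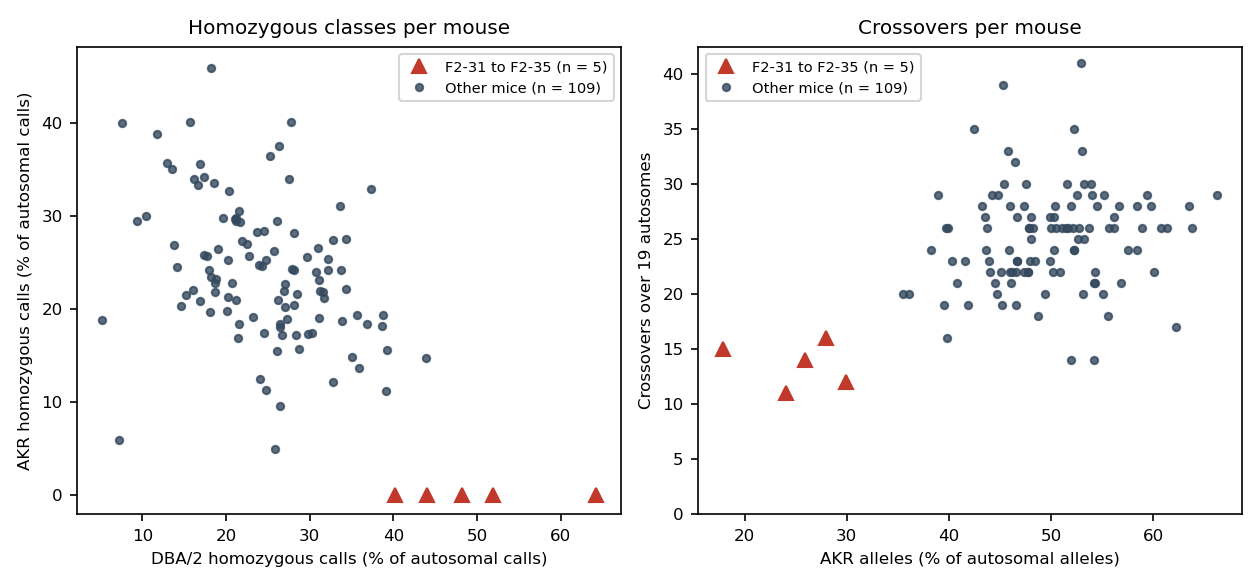
Each point is a mouse. The left panel plots AKR homozygous against DBA/2 homozygous calls (% of autosomal calls) and the right panel crossovers over 19 autosomes against AKR alleles (% of autosomal alleles). Triangles are F2-31 to F2-35, which lie at 0% AKR homozygous calls and at 11 to 16 crossovers, and circles are the other mice.

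At 2 places many mice switched class and switched back at the same pair of markers. Over all mice and autosomes, 694 runs of 1 class had the same other class on both sides, 354 of them a step towards AKR and 340 a step towards DBA/2. On chromosome 11, 21 mice stepped between rs6239937 (34.7 Mb) and rs6267501 (36.4 Mb) and stepped back between rs8264413 (53.6 Mb) and rs4228731 (55 Mb). Every one of the 21 moved 1 class towards AKR over the 24 markers between. Of these mice, 13 were heterozygous outside and AKR homozygous inside, and 8 were DBA/2 homozygous outside and heterozygous inside. On chromosome 7, 13 mice stepped between rs3687855 (39.2 Mb) and rs13479236 (40.8 Mb) and back between rs6286370 (41.6 Mb) and rs13479245 (43.7 Mb). All 13 moved 1 class towards DBA/2 at the 2 markers between, with 4 AKR homozygous and 9 heterozygous outside. No other pair of intervals was shared by more than 4 mice. These places were found after the calls had been seen.

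The returning switches show as breaks in the allele share. On chromosome 11 AKR alleles made up 45.6% at rs6239937, between 55.3% and 58.5% at the 24 markers inside and 49.1% at rs4228731. On chromosome 7 they made up 48.7% at rs3687855, 41.2% at both markers inside and 46.4% at rs13479245. The outer chromosome 11 markers differed by 24 steps over all mice, while the intervals at the ends held 28 and 23 crossovers and the markers inside another 19. The outer chromosome 7 markers differed by 7 steps, while the intervals at the ends held 17 and 16. Among mice with equal calls at both outer markers, the 21 mice made up 21.6% of the 97 DBA/2 alleles that could have switched on chromosome 11, and the 13 mice made up 13.4% of the 97 AKR alleles that could have done so on chromosome 7. The chromosome 11 switch occurred in 9 mice with an AKR and 12 with a DBA/2 paternal grandmother, that of chromosome 7 in 7 and 6, and 4 mice had both. F2-35 was 1 of the 13 mice with the chromosome 7 switch, and none of the other 4 mice that lack AKR homozygotes had either. The origin of the switches was not tested.

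**Figure D2:**
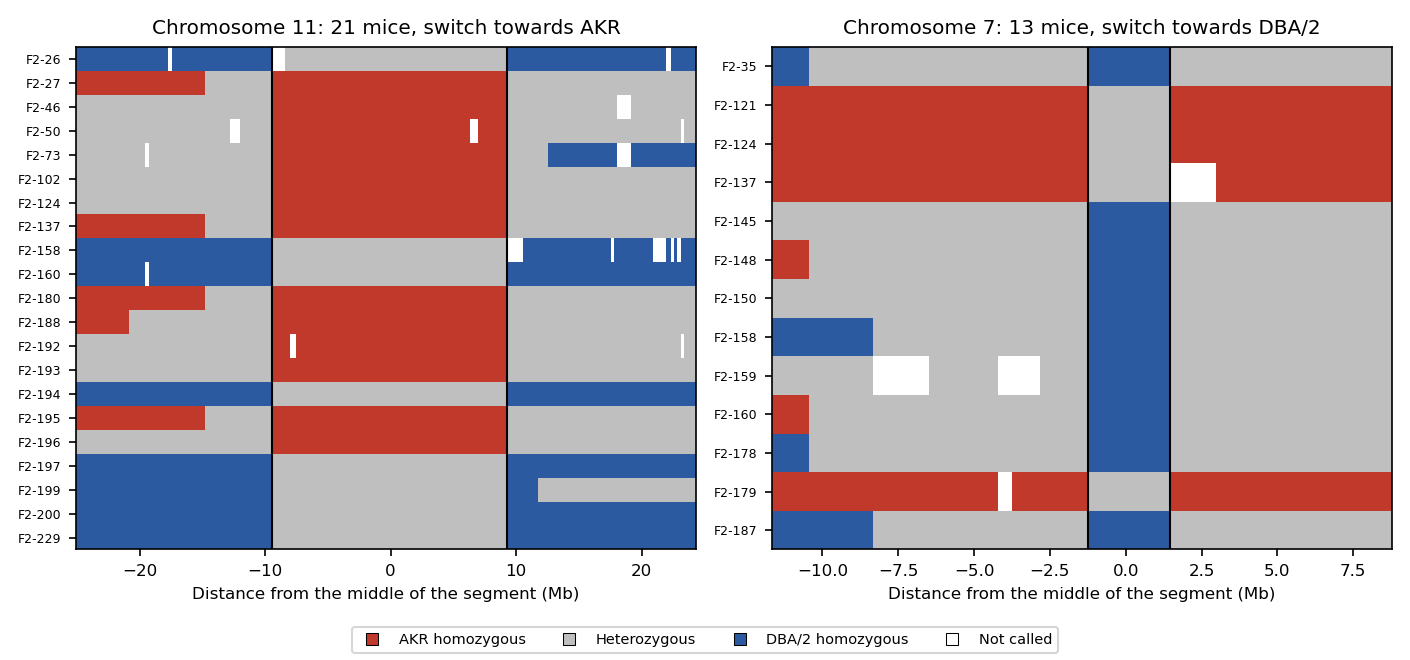
Calls of the 21 mice with the chromosome 11 switch (left) and of the 13 mice with the chromosome 7 switch (right), 1 row per mouse, against distance from the middle of the segment in Mb. Red is AKR homozygous, grey heterozygous, blue DBA/2 homozygous and white not called, and black lines mark the ends. Every row moves 1 class towards AKR on chromosome 11 and 1 class towards DBA/2 on chromosome 7.

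The markers covered 2292 Mb from the first to the last marker of each autosome. Neighbouring markers were a median of 0.560 Mb apart, and 69.3% of the 1902 intervals were under 1 Mb. The 1921 markers gave 1596 distinct patterns of calls, so that many neighbours carried the same information. Coverage was uneven. 19 intervals on 12 autosomes exceeded 10 Mb and took up 302 Mb, or 13.2% of the span. The widest ran for 41 Mb on chromosome 2, from rs3681847 (12.1 Mb) to rs13476501 (53 Mb), whose calls were correlated at r = 0.54 over mice. It was followed by 24.7 Mb on chromosome 10 (rs13459120 to rs13480620), 24.6 Mb on chromosome 6 (rs13479008 to rs3023105), 23.1 Mb on chromosome 8 (rs13479741 to rs8253552) and 16.4 Mb on chromosome 9 (rs13480065 to rs13480108). Crossovers were counted at 1.03 per 100 Mb and mouse inside the wide intervals and at 1.08 outside them. Each count is the fewest that account for the calls, so crossovers that cancel between neighbouring typed markers are missed. More can be missed in a wide interval, so these rates do not show whether the wide intervals recombine less. The first marker lay at 3.05 to 7.52 Mb on 17 autosomes, at 16.4 Mb on chromosome 8 and at 23.3 Mb on chromosome 7, which carries the Apoe gene that both strains lack.

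Of all autosomal calls 1.26% were missing. 6 mice that missed over 5% of their calls accounted for 49% of these, and 682 markers had none missing. The mouse with the most missing calls, 19.2%, also had the most crossovers, 41. F2-228 missed 13% and was heterozygous at 86.8% of its calls and throughout 11 autosomes. Another mouse, F2-30, was heterozygous at 76%, with 0.156% missing. No 2 mice were copies, since pairs of mice shared 15.3% to 69.1% of their calls over 6441 pairs.

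Against 1:2:1, 0 of the 1921 autosomal markers (0%) passed a chi-square test with Benjamini-Hochberg adjustment over the whole table. The smallest adjusted p was 0.708, and an exact multinomial test gave 0 markers as well. At an unadjusted p under 0.05 there were 115 markers (5.99%) by the chi-square test and 123 (6.4%) by the exact test. The 115 lay on 12 autosomes in 29 runs of neighbours, which share their meioses. Among them 67 had an AKR allele share below 50% and 43 above it, and 79 had more than 50% heterozygotes and 36 fewer. The whole set of 1921 leaned the same way, with 1185 below and 638 above 50% AKR alleles. In that set 1092 markers had more than 50% heterozygotes and 717 fewer. Without F2-31 to F2-35 there were 88 markers under 0.05, and none passed the adjustment.

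The 5 autosomes with the smallest p departed in different ways. On chromosome 13, rs13481810 (51.8 Mb) had 21 AKR homozygotes, 74 heterozygotes and 17 DBA/2 homozygotes, with a p of 0.00266. Its heterozygous share of 66.1% (95% Wilson interval 56.9% to 74.2%) was the highest of any autosomal marker. It lay in the longest run, of 24 markers from rs6314295 (20.0 Mb) to rs13481852 (63.4 Mb), where heterozygotes made up 61.4% to 66.1%. On chromosome 3, rs13477307 (107.7 Mb) lay in the same direction with 22, 68 and 15 mice, a heterozygous share of 64.8% (55.3% to 73.2%) and a p of 0.00646, in a run of 17 markers from rs13477301 (106.2 Mb) to rs13477397 (132.2 Mb).

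AKR alleles were below 50% at the other 3. On chromosome 5, rs13478192 (36.2 Mb) had 11 AKR homozygotes, 57 heterozygotes and 33 DBA/2 homozygotes, with a p of 0.00359. Its AKR allele share of 39.1% (32.6% to 46%) was the lowest of all, over the fewest mice of the 5 markers named here. In its run of 6 markers, to rs13478199 (38.1 Mb), the AKR share was 39.1% to 42.1%, and without the 5 mice that lack AKR homozygotes that of rs13478192 was 40.6%. In all, 28 markers of chromosome 5 were under 0.05, from rs6256752 (19.4 Mb) to rs4138683 (146.2 Mb). On chromosome 8, rs13479629 (19.4 Mb) had 22, 49 and 42 mice and an AKR allele share of 41.2% (34.9% to 47.7%), with a p of 0.0107. The run of 12 markers from rs13479637 (16.4 Mb) to rs13479690 (32.1 Mb) started at the first marker of the chromosome. On chromosome 7, rs13479236 had 22, 50 and 42 mice, an AKR allele share of 41.2% (35% to 47.7%) and a p of 0.0127. It is 1 of the 2 markers inside the chromosome 7 switch, and without the 5 mice its p was 0.0875.

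**Figure D3:**
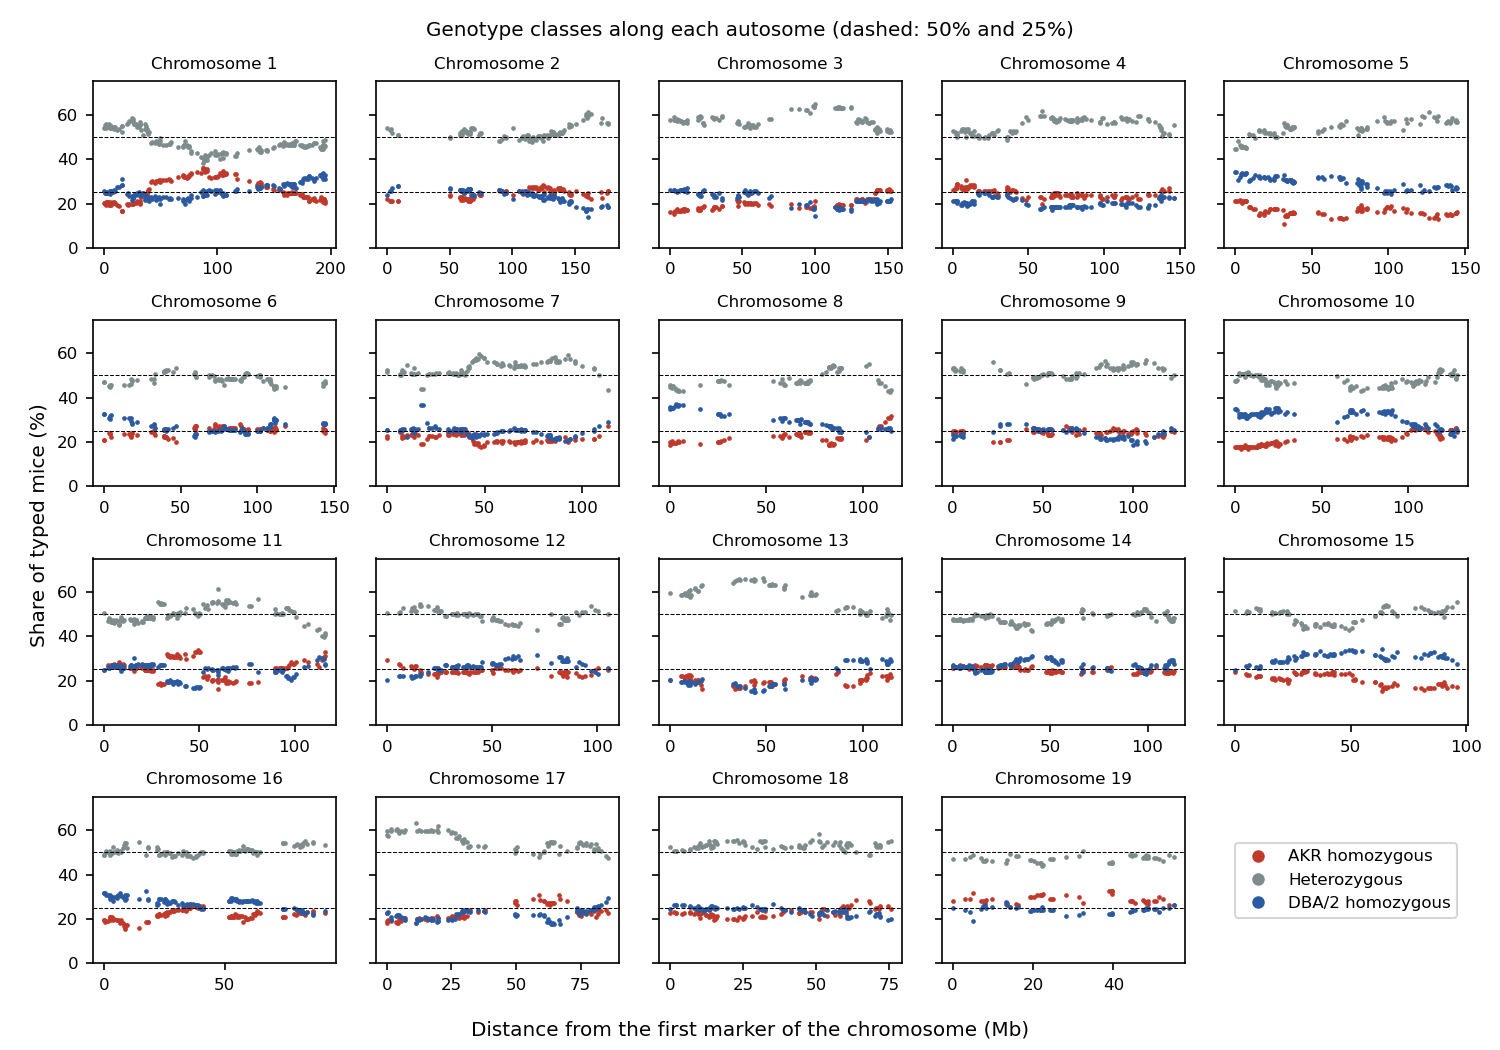
Share of typed mice (%) that were AKR homozygous (red), heterozygous (grey) and DBA/2 homozygous (blue) at each marker, against distance from the first marker in Mb, for the 19 autosomes. Dashed lines mark 50% and 25%. Heterozygotes reach 66.1% on chromosome 13, and the shares break sharply at the switches of chromosomes 7 and 11.

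Over whole mice, the AKR allele share was 48.7% ± 8.01 (SD over all mice), with 54 mice above 50% and 60 below. It did not pass against 50% by a sign-flip permutation test over mice (p = 0.0931, two-sided). Without F2-31 to F2-35 it was 49.8% ± 6.28 (permutation p = 0.756). Mice with an AKR paternal grandmother had 49.2% ± 6.13 (permutation p = 0.264, n = 77) and those with a DBA/2 paternal grandmother had 47.7% ± 11 (permutation p = 0.219, n = 37). The 5 mice are among these 37, and the other 32 had 51.3% ± 6.50 (permutation p = 0.283), on the other side of 50%. The heterozygous share was 51.4% ± 8.63 (permutation p = 0.0868), with 62 mice above 50% and 52 below. With each marker weighted by the Mb it stands for, it was 51.6% with a permutation p of 0.041, and without the 2 mice over 75% heterozygous it was 50.9% (permutation p = 0.238).

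None of the 19 autosomes passed the adjusted sign-flip test for either share (0% called), with 2 autosomes under an unadjusted permutation p of 0.05 for each. Chromosome 5 had the lowest AKR allele share at 43.4% ± 25.1 (SD, permutation p = 0.00602, adjusted p = 0.114), followed by chromosome 10 at 44.9% ± 27.1 (permutation p = 0.0475, adjusted p = 0.452). Chromosome 3 had the highest heterozygous share at 57.9% ± 29.4 (permutation p = 0.00552, adjusted p = 0.105), followed by chromosome 13 at 57.6% ± 33.3 (permutation p = 0.016, adjusted p = 0.152). Without F2-31 to F2-35 none passed either, with 1 autosome under 0.05 for each share and a smallest adjusted p of 0.443 for the AKR allele share and 0.229 for the heterozygous share.

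Crossovers were counted as the fewest that account for the calls of a mouse, 1 for a step to or from the heterozygous class and 2 for a step between the homozygous classes. Both gametes are counted together, since the phase of heterozygous calls is not seen. There were 2794 crossovers on the autosomes, or 24.5 ± 5.05 per mouse (SD, range 11 to 41). That is 12.3 per meiosis over 228 meioses, with 2 counted for every mouse, F2-31 to F2-35 included. Only 20 steps led directly from one homozygous class to the other. Without F2-31 to F2-35 there were 25 ± 4.55 per mouse, and without the 26 markers inside the switches of chromosomes 7 and 11 there were 23.9 ± 4.92. Single calls that differed from equal calls on both sides numbered 47, or 0.0217% of all calls, in 28 mice and at 42 markers. Of 3 relations over mice, missing calls went with crossovers at r = 0.23 (permutation p = 0.0198, adjusted p = 0.0296), with a Spearman rho of 0.18 (permutation p = 0.0635, adjusted p = 0.0962). Missing calls went with the heterozygous share at r = 0.27 (permutation p = 0.0057, adjusted p = 0.017), with a Spearman rho of 0.16 (permutation p = 0.0962, adjusted p = 0.0962). Both rest on the 2 mice farthest from the median of missing calls, without which r was 0.11 and 0.037. The heterozygous share went with crossovers at r = 0.13 (permutation p = 0.177, adjusted p = 0.177), with a Spearman rho of 0.17 (permutation p = 0.0696, adjusted p = 0.0962), and without 2 mice r was 0.20.

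Of the 2166 combinations of a mouse and an autosome, 448 (20.7%) had no crossover, 903 had 1, 613 had 2, 157 had 3 and 45 had more. The whole autosome was AKR homozygous in 92 combinations, heterozygous in 234 and DBA/2 homozygous in 122. On single autosomes crossover numbers varied less between mice than independent placement would give. Over all mice their totals per mouse did not, with a ratio of variance to mean of 1.04. That ratio includes the 5 mice that lack AKR homozygotes, which had few crossovers. Without these 5 mice the totals were 25 ± 4.55 (SD), in place of 24.5 ± 5.05, so that their variance was below their mean. The variance of the number per mouse was below its mean on each of the 19 autosomes, with a ratio of 0.484 on chromosome 17, a median of 0.651 and a maximum of 0.885 on chromosome 11. Without the markers inside the switches the ratio on chromosome 11 was 0.696.

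The estimated map of the autosomes, from a hidden Markov model of the F2 with the Haldane function, was 1303 cM long, or 0.569 cM per Mb. The plain crossover count gives 1225 ± 23.6 cM (SE over mice). Map lengths ran from 40.8 cM on chromosome 18 to 99 cM on chromosome 11. Over the 19 autosomes, which share the same mice, map length went with the span in Mb (Pearson r = 0.77, Spearman rho = 0.79), while cM per Mb went down with the span (r = -0.54, rho = -0.47). Chromosome 19, with the shortest span of 55 Mb, had 0.908 cM per Mb, and chromosome 1, with the longest span of 195.4 Mb, had 0.458. Without the markers inside the switches, chromosome 11 was 75.9 cM long at 0.653 cM per Mb and chromosome 7 was 65.8 cM in place of 78.8 cM, at 0.581 cM per Mb. The whole map was then 1267 cM, and it was 1333 cM without F2-31 to F2-35.

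**Figure D4:**
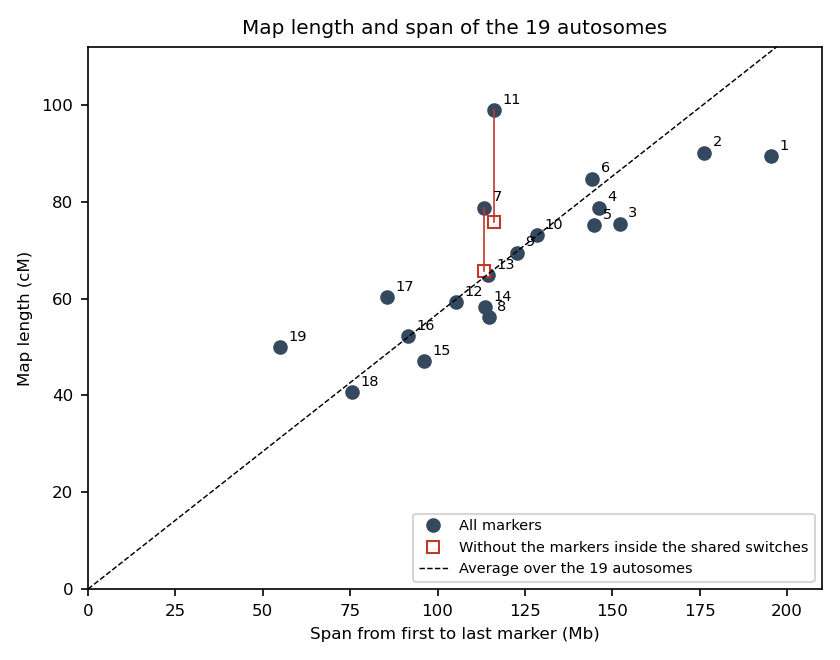
Map length in cM against the span from first to last marker in Mb, with 1 filled point for each autosome, labelled by its number. Open squares give chromosomes 7 and 11 without the markers inside the shared switches, 65.8 and 75.9 cM in place of 78.8 and 99 cM, and the dashed line is the average of 0.569 cM per Mb.

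Each autosome's crossovers per 100 Mb were set against those of the other 18 in the same mice. By the sign-flip permutation test with Benjamini-Hochberg adjustment, 7 of 19 autosomes (36.8%) differed. Chromosome 19 had 1.72 crossovers per 100 Mb and mouse, against 1.05 on the other 18, a difference of 0.668 ± 0.124 (SE) with higher values in 83 mice and lower values in 31. Chromosome 17 had 1.36 against 1.06, with higher values in 78 mice (permutation, adjusted p = 0.00176). Fewer crossovers per Mb were found on chromosome 1, with 0.884 against 1.09 and lower values in 73 mice (permutation, adjusted p = 0.00152), and on chromosome 2, with 0.905 against 1.08 and lower values in 74 mice (permutation, adjusted p = 0.00448). These 4 also passed without the markers inside the switches. The counts miss crossovers that cancel between neighbouring typed markers, and chromosome 2 holds the widest interval. Its map was 90.2 cM against 79.8 cM from the count, while chromosome 1 had 89.4 and 86.4 cM. The lower rate of chromosome 2 is thus in part a matter of counting, although its map of 0.511 cM per Mb was also below the 0.569 of all autosomes. The adjusted p of chromosome 19 was 9.5e-05, and 1e-05 was the smallest unadjusted p that the resampling could give.

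The other 3 did not pass once the markers inside the switches were left out. Chromosome 11 had 1.57 against 1.04 (permutation, adjusted p = 9.5e-05) and chromosome 7 had 1.32 against 1.06 (permutation, adjusted p = 0.0108). Without the markers inside the switches the rates were 1.22 against 1.03 on chromosome 11 (permutation, adjusted p = 0.0696) and 1.12 against 1.04 on chromosome 7 (permutation, adjusted p = 0.554). Chromosome 8, with 0.918 against 1.08, had an adjusted p of 0.0489 by permutation, and 0.168 without those markers.

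Of the 1902 intervals, 829 held at least 1 crossover and 1073 held none. The most were 53 in the wide interval of chromosome 6 from rs13479008 to rs3023105, which is 1.89 per 100 Mb and mouse. Next came 42 in that of chromosome 2 from rs3681847 to rs13476501, 28 between rs6239937 and rs6267501 on chromosome 11, 27 over 16.4 Mb between rs13481719 (20.2 Mb) and rs3090768 (36.6 Mb) on chromosome 13, and 23 between rs8264413 and rs4228731 on chromosome 11. The 4 intervals at the ends of the switches were the densest of all those with 10 or more crossovers. They held 14.4 and 13.8 per 100 Mb and mouse on chromosome 11 and 8.98 and 6.71 on chromosome 7, and the next was 5.75 on chromosome 19, between rs8275912 and rs13483680. The longest stretches with no crossover were 9.57 Mb on chromosome 14 (rs13482050 at 4.75 Mb to rs6404734), 6.82 Mb on chromosome 12 (rs13481405 at 34.7 Mb to rs13481429), 6.63 Mb on chromosome 17 (rs6298471 at 36.2 Mb to rs8252848), 6.10 Mb on chromosome 17 (rs13482897 at 16.5 Mb to rs13479580) and 5.88 Mb on chromosome 1 (rs6367205 at 7.67 Mb to rs13475731).

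Crossovers lay towards the distal end, away from the centromere. With each span divided into 3 equal segments, the distal segments held 10.6 ± 2.91 crossovers per mouse, against 7.49 ± 2.53 in the proximal segments (SD), and the middle segments held 6.39 ± 2.48. The difference between distal and proximal segments was 3.13 ± 3.76, with a sign-flip permutation p of 1e-05, the smallest that 100000 resamples can give. It was positive in 88 mice, negative in 17 and 0 in 9. Distal crossovers outnumbered proximal ones on 17 of 19 autosomes. On chromosome 14 there were 41 distal and 44 proximal crossovers, and on chromosome 7 there were 61 of each. The proximal segment of chromosome 7 contains both intervals at the ends of its switch, which held 17 and 16 crossovers. Its distal and proximal counts without the markers inside the switch were not compared. With the span divided into 10 bins, the most distal bin held 18.5% of all crossovers and the most proximal bin 7.52%, with 199 and 270 markers. Without the markers inside the switches the difference was 3.63, and without F2-31 to F2-35 it was 3.37.

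**Figure D5:**
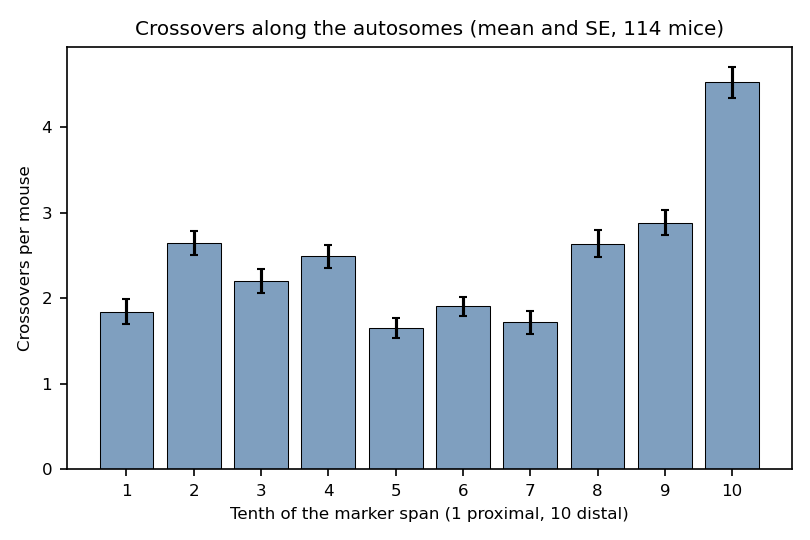
Mean number of crossovers per mouse in each of 10 bins of the marker span, summed over 19 autosomes, from 1 (proximal) to 10 (distal). Bars start at 0 and error bars are SE over mice. The last bin stands highest at 4.53 crossovers per mouse and the fifth lowest at 1.65.

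Between autosomes, the AKR allele share was correlated over mice for every pair of the 19, and 0 pairs (0%) passed after adjustment. By permutation of the mice, 7 pairs (4.09%) had an unadjusted p under 0.05 for Pearson's r and 3 for Spearman's rho. The highest was chromosome 4 with 18 (Pearson r = 0.23, Spearman rho = 0.21, permutation p = 0.0133 and 0.0244, adjusted p = 0.870 and 0.946), and r was 0.20 without the 2 mice farthest from the median. The mean over all pairs was 0.032, with 115 positive and 56 negative pairs, and its permutation p was 0.0001, the smallest that 10000 permutations can give. Without F2-31 to F2-35 the mean was -0.0025 (permutation p = 0.726). The heterozygous share had a mean correlation of 0.012 (permutation p = 0.101), and without the 2 mice over 75% heterozygous it was -0.0043 (permutation p = 0.549).

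Among 1741364 pairs of markers on different autosomes, 0 (0%) passed, with a smallest adjusted p of 0.983, and 4.64% had an unadjusted p under 0.05 by Pearson's r. The largest in size was r = -0.38 (Spearman rho = -0.38) between rs13476881 on chromosome 2 (162.7 Mb) and rs13480787 on chromosome 10 (121.9 Mb), and it was -0.39 without 2 mice. It was followed by r = 0.36 between rs6191976 on chromosome 9 and rs13483274 on chromosome 18 and by r = 0.35 between rs13478293 on chromosome 5 and rs13481852 on chromosome 13. No autosomal marker had its strongest correlation with a marker of another autosome. The lowest correlation of neighbouring markers was r = 0.496, and over markers of 1 chromosome the mean r was 0.99 under 1 Mb, 0.85 at 10 to 20 Mb, 0.47 at 40 to 80 Mb and 0.19 at 80 to 160 Mb.

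Per gamete, the autosomes had 0.535 crossovers per 100 Mb, against 0.512 on the X chromosome, where each male shows 1 maternal gamete. The difference of 0.0224 ± 0.0539 (SE, with an SD of 0.576 over mice) did not pass a sign-flip permutation test (p = 0.680). The X rate comes from maternal meioses alone, while the autosomal rate averages maternal and paternal ones. The test therefore does not compare the chromosomes within the same meioses. The 5 mice that lack AKR homozygotes were counted like the others, and the difference without them was not computed. At the 46 X markers 0 had an unadjusted p under 0.05 against 1:1 by an exact binomial test.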

How the data were processed

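The authors genotyped DNA of each mouse on a mouse SNP chip and deposited class codes, 1 for AKR homozygous, 2 for heterozygous and 3 for DBA/2 homozygous, which are categories and not measured values. The calling software and the genome build are not given in the sources used here. The 114 columns marked male were used. A further 95 columns, marked female, were not, since there are 93 female samples, and the expression values were not used.

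Markers were ordered by Mb, which moved 2 rows of the table. Missing calls were left out. Markers were tested against 1:2:1 by a chi-square test with 2 degrees of freedom, X markers by an exact binomial test, with Benjamini-Hochberg adjustment over 1967 markers. Values per mouse were tested with 100000 sign flips, pairs of autosomes with 100000 permutations and mean correlations with 10000. The map used a genotyping error of 0.0001. The methods were tested on simulated mice. Mice are the replicates, and their number limits precision. Named markers have the smallest p of their autosome or lie at the ends of runs, gaps, switches, crossover-rich intervals and stretches without crossovers. Members and lists were chosen with earlier results of these data known. Tests ran in scipy 1.17.1, the map in numba 0.67.0, arrays in numpy 2.4.6 and figures in matplotlib 3.10.9, under Python 3.11.15.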

Additional observations from a re-analysis of the deposited data

How the results depend on the processing

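Of 73 alternative values of main results with a test, 66 kept the direction and the side of the threshold or, for counts, stayed within 1.5 times. The 20 of map length and crossovers per mouse, which have no test, moved by less than the SD between single mice. That is a wide limit, since the map length from the plain crossover count has an SE of 23.6 cM. Dropping markers or mice that miss over 5% of the calls, the mice with the highest and lowest heterozygous share, or isolated calls left the map between 1273 and 1307 cM, and an error of 0.01 gave 1271 cM, the Kosambi function 1250 cM and the deposited row order 1344 cM. The heterozygous share passed 0.05 only with markers weighted by Mb (51.6%). The mean correlation of heterozygosity was -0.000231 without mice missing over 5%, -0.00207 without the mice with the highest and lowest heterozygous share and -0.00434 without the 2 mice over 75% heterozygous, and that of the AKR allele share was -0.00252 without the 5 mice that lack AKR homozygotes. Without them the AKR allele share of mice with a DBA/2 paternal grandmother was 51.3%, against 47.7% with them. Without the markers inside the switches 4 autosomes had a shifted crossover rate, in place of 7, and 6 to 8 had one under the others. With runs of 1 or 2 calls left out, the adjusted p of chromosome 7 was 0.72. Of 76 values for single autosomes and markers, 68 stayed on their side of the threshold and 8 lost it in the same direction, on chromosomes 7, 8 and 11. The causes were not tested. Settings on the 5 mice, the 2 mice, the switches, the grandmother and the row order, and all those on the mean correlation of the AKR allele share, were chosen after seeing the data. No paired analysis was possible because no label pairs mice of different groups, and the tests within mice need no block. Shares at a marker carry the intervals printed beside them, so that small departures from 1:2:1 were not detectable.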
